A study of Mus musculus with 30 samples.

Results

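The 10 genes described here are the cyclins *Ccnd1*, *Ccnd2*, *Ccnd3*, *Ccne1*, *Ccne2*, *Ccna2* and *Ccnb1*, the cyclin-dependent kinases *Cdk1* and *Cdk2*, and the inhibitor *Cdkn1b*. They were taken by name from the 55487 genes of the embryo count files, with earlier results of these data known. No threshold on their values was used, and all 10 were found and passed the filter on low counts. The data are RNA-seq counts of 23 single pre-implantation mouse embryos from matings of mice heterozygous for a *Dis3* null allele, made by CRISPR-Cas9 deletion of exons in the germline. DIS3 is a ribonuclease that associates with the RNA exosome. Because every mother was heterozygous, all embryos came from oocytes made in a *Dis3* het female. Genotyping gave 6 wild-type, 2 het and 4 null embryos collected at E2.5. Those collected at E2.75 were 3 wild-type, 5 het and 3 null. A second readout is ChIP-seq of a POU6F1-mCherry fusion in embryonic stem cells (mESCs) derived from *Dis3* flox/flox blastocysts, transfected with *Pou6f1-mCherry*, with 2 replicates of the anti-mCherry precipitation.

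The cell cycle is driven by kinases that are active only when bound to a cyclin. D cyclins bind CDK4 and CDK6 and release E2F factors from RB, cyclin E with CDK2 starts DNA replication, cyclin A acts in S phase and G2, and cyclin B with CDK1 starts mitosis. p27, the product of *Cdkn1b*, binds and inhibits cyclin E with CDK2. Blastomeres of the cleaving embryo divide with short gap phases and without growth, on RNA that is at first maternal and then made by the embryo.

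A library held 1690192 to 14015980 counts on genes (median 8030848), and the 2 shallowest were null embryos of E2.75. Null libraries held more reads that did not lie wholly in annotated exons, 32.3% to 43.9%, against 20.99% to 33.4% in the others. The part of these reads in the results was not tested. ERCC spike-ins, RNA added to each embryo at collection, made up a median of 6.23% of the counts on genes and spike-ins in null libraries. The medians were 2.58% in het and 3.88% in wild-type libraries. *Dis3* itself was at 0 to 21.5 CPM (counts scaled to a common library size after TMM) in the 7 null embryos, 30.4 to 59.2 in the 7 het embryos and 18.0 to 147 in the 9 wild-type embryos. The lowest wild-type value, 18.0 CPM, lay within the null range and came from the E2.5 library labelled wild-type replicate 6. Several results that rest on this library are also given without it. The 7 markers of the pre-implantation embryo were all detected in every group. Markers of cumulus cells, oviduct and blood summed to no more than 18.9, 12.2 and 5.72 CPM in any embryo, with *Hbb-bs* at 0 in all embryos. Each library is a whole embryo, so fewer cells with a transcript and less transcript in each cell cannot be told apart.

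Promoter sequences are shown for the genes on which the comparisons below turn, since the second readout measures a transcription factor at these sites. *Ccne1* fell in null embryos, *Ccnb1* fell in E2.75 null against wild-type embryos, and *Ccnd3* and *Cdk2* rose from E2.5 to E2.75 in wild-type embryos. The sequences are from RefSeq (GRCm38.p6), whose table matched 6 of the 10 genes. Each is printed 5′ to 3′ in the direction of the gene and ends before an annotated start site, which for *Ccnd3* is one inside the gene. Capitals mark the letters of 3 motifs on either strand: the GC box with the letters GGGCGG, the box that reads CCAAT, and an E2F motif (TTTGGCGC, TTTCCCGC or TTTCGCGC).
*Ccne1* (chr7:38107535-38107740, minus strand): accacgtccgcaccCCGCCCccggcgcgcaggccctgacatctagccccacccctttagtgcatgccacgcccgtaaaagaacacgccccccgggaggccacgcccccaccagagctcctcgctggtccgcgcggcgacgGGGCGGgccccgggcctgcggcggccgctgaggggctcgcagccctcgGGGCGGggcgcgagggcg
*Cdk2* (chr10:128705052-128705301, minus strand): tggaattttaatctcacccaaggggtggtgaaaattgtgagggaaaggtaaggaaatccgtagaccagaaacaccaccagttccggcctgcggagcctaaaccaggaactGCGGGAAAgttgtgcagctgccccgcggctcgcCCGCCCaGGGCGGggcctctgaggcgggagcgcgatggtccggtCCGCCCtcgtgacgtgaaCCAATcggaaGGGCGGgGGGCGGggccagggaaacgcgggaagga
*Ccnb1* (chr13:100786571-100786736, minus strand): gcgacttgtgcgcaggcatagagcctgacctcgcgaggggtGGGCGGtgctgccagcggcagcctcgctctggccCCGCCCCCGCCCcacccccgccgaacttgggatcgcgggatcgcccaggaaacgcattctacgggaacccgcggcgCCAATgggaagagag
*Ccnd3* internal start (chr17:47593217-47593435, plus strand): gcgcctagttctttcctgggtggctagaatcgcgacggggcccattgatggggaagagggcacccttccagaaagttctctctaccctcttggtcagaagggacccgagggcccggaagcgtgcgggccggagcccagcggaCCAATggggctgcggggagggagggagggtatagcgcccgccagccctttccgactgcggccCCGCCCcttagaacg

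The *Ccne1* window of 206 bases held 3 GC boxes and neither of the other motifs. The *Cdk2* window of 250 bases held 5 GC boxes, 1 CCAAT and 1 E2F motif, the *Ccnb1* window of 166 bases 3 GC boxes and 1 CCAAT, and the *Ccnd3* window of 219 bases 1 of each of these. Of 32851 RefSeq promoters cut to the same lengths, 18.9% to 32.7% held a GC box, 22.4% to 33.8% a CCAAT and 0.935% to 1.53% an E2F motif. A search for TTTGAA and for TAATTA, also on both strands, found neither in these 4 windows. These matches describe the letters and say nothing of binding. The gene bodies lie on GRCm38 at chr7:38097984-38107534 for *Ccne1*, chr10:128697939-128705031 for *Cdk2*, chr13:100778650-100786570 for *Ccnb1* and chr17:47505051-47599691 for *Ccnd3* (GENCODE vM21).

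Levels between genes are compared as RPKM, that is CPM divided by the exon length in kilobases. This length includes bases shared with exons on the other strand: 23.4% for *Ccnd1*, 17.4% for *Ccne2* and 12.5% for *Ccna2*. For *Ccne1*, *Ccnb1* and *Cdk1* the shared part was 0%. Its effect on the levels and on ratios of RPKM was not tested. In wild-type embryos (n = 9) *Ccnb1*, *Ccna2*, *Ccne1* and *Cdk1* were the abundant members, with medians of 140.3, 127, 115 and 102 RPKM. *Cdk2* followed at a median of 11.3, then *Ccne2* at 8.03, *Ccnd3* at 5.64, *Ccnd1* at 4.43, *Ccnd2* at 0.496 and *Cdkn1b* at 0.289. The first 4 overlapped in their ranges over embryos, as did *Cdk2*, *Ccne2*, *Ccnd3* and *Ccnd1*. The order of these genes within each embryo was not tested. Against the 13415 genes tested, *Cdk1*, *Ccna2*, *Ccnb1* and *Ccne1* stood at percentiles 98.0, 98.0, 97.6 and 94.4, and *Cdkn1b* at percentile 8.72. These percentiles are of the average log2 CPM of edgeR over all 23 embryos.

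**Figure D1:**
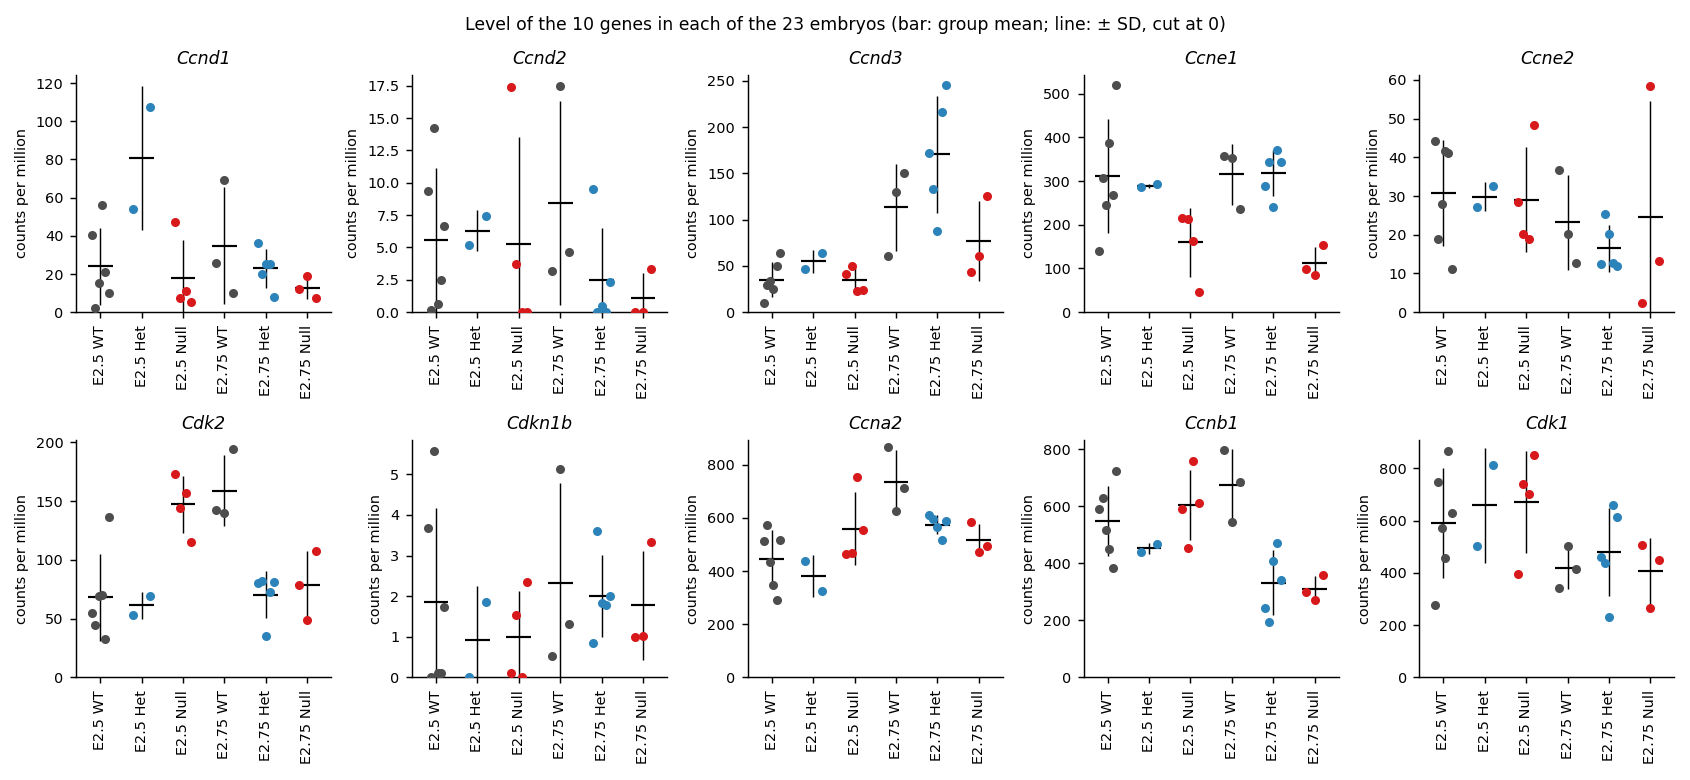
Each panel plots 1 gene in CPM (y axis, from 0) in the 23 embryos by stage and genotype (x axis). Points are embryos, bars group means and lines SD. The 7 null embryos lie at 46.5 to 215 CPM for *Ccne1*, below every het embryo. The mean of *Ccnd3* is higher at E2.75 than at E2.5 in each genotype, and the stages overlap in wild-type and null embryos.

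The genes differed in how steady they were between embryos of 1 stage and genotype. *Ccna2* and *Ccnb1* had SDs of 0.28 and 0.36 on the log2 scale, at percentiles 1.58 and 5.87 of all genes tested. *Ccnd2* had an SD of 2.18 at percentile 97.2 and was at 0 in 6 embryos, 4 of them null. *Cdkn1b* had an SD of 1.51 and no more than 46 counts in any embryo.

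*Ccne1* encodes cyclin E1, and it was the member that fell in null embryos. At E2.5 the null embryos held 215, 213, 164 and 46.5 CPM, the het embryos 286 and 292, and the wild-type embryos 139.7, 306, 246, 387, 267 and 520.1. At E2.75 the null embryos held 99.1, 84.6 and 153 CPM, the het embryos 289, 343, 240.5, 372 and 343, and the wild-type embryos 357, 353 and 235. Every null embryo lay below every het embryo, which was so for 0.686% of the genes tested. The null and wild-type embryos overlapped through E2.5 wild-type replicate 1 alone.

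With the stages merged, the mean of *Ccne1* was 139 ± 64.8 CPM in null embryos (SD, n = 7), 309.5 ± 45.1 in het (n = 7) and 312 ± 109 in wild-type (n = 9). The log2 fold change was -1.15 ± 0.28 (SE) against het embryos and -1.16 ± 0.27 against wild-type embryos. The adjusted p-values were 0.0185 and 0.0120 by the quasi-likelihood test of edgeR, Benjamini-Hochberg adjusted over all genes tested. A gene was called where its adjusted p was under 0.1 and its log2 fold change beyond 1 in size, and *Ccne1* was called lower in both comparisons. It was the only 1 of the 10 members called in either, where 5.73% of the genes tested were called against het embryos and 5.25% against wild-type embryos, so the members were called at about the background share. Both comparisons share the null embryos. *Ccne1* stayed called without each embryo in turn, with log2 fold changes from -1.29 to -1.002 against het and from -1.30 to -1.01 against wild-type. Without E2.5 wild-type replicate 6 it was -1.03 against wild-type (adjusted p = 0.0292), and without the 2 shallowest null libraries it was -1.03 in both comparisons (adjusted p = 0.0673 and 0.07109).

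By stage, *Ccne1* fell at E2.75 by 1.53 on the log2 scale against het embryos (SE 0.27, edgeR adjusted p = 0.00913) and by 1.53 against wild-type embryos (SE 0.28, adjusted p = 0.0169). At this stage 1 of 10 members was called against het embryos, with 4.82% of the genes tested called. At E2.5, where 0.0126% and 1.82% of the genes tested were called against het and wild-type embryos and 0 members were, the log2 fold changes were -0.91 ± 0.52 and -0.99 ± 0.41, with adjusted p-values of 0.571 and 0.275. Without E2.5 wild-type replicate 6 the value against wild-type was -0.77 (edgeR adjusted p = 0.377). The interaction of stage and genotype was -0.64 ± 0.59 for null against het and -0.54 ± 0.54 for null against wild-type (adjusted p = 0.915 and 0.797), so a difference between the stages was not shown. The log2 fold change of het against wild-type embryos was -0.01 ± 0.26 (adjusted p = 0.997).

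*Ccne2*, the gene of cyclin E2, gave far less RNA and held 2.46 to 58.5 CPM over all embryos with no separation of the genotypes. Its log2 fold change in null embryos was 0.42 ± 0.47 against het and -0.06 ± 0.45 against wild-type (adjusted p = 0.7103 and 0.983). *Ccne1* made up 80.6% to 98.4% of the RPKM of both E cyclins in the wild-type embryos and 92.2% to 97.5% in the het embryos. In null embryos this share ranged from 55.8% to 98.1%, and it was lowest in E2.5 null replicate 4 and E2.75 null replicate 2. The count of *Ccne2* carries the caveat that 609 bases of its exons overlap exons of *Ints8* on the other strand, and the counting ignored strand. In the authors' counting mode, reads lying wholly in exons of both genes count for neither, so such reads are missing from it.

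*Cdk2* encodes the kinase partner of cyclin E. At E2.5 it held 173, 144, 157 and 115 CPM in null embryos, 53.3 and 69.8 in het embryos and 54.7, 44.3, 69.7, 70.3, 32.8 and 137 in wild-type embryos. At E2.75 it held 78.9, 49.2 and 108 CPM in null embryos, 80.5, 82.3, 35.0, 72.9 and 81.1 in het embryos and 143, 140.4 and 194 in wild-type embryos. At E2.5 the null embryos were above all others save the library labelled wild-type replicate 6. Every E2.5 null embryo was above every E2.5 het embryo, as for 9.18% of the genes tested. At E2.75 the null embryos lay below all wild-type embryos, as for 11.1% of the genes tested, and overlapped the het embryos.

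None of these differences of *Cdk2* between genotypes was called by edgeR with TMM and the filter on low counts, though some were under other settings. Null embryos stood against wild-type embryos at a log2 fold change of 1.07 ± 0.35 at E2.5 and -1.06 ± 0.37 at E2.75 (edgeR adjusted p = 0.168 and 0.143). The interaction of stage and genotype was -2.13 ± 0.54 with an unadjusted p of 0.000508, which over 18677 genes gave an adjusted p of 0.261. No gene passed in that interaction by edgeR (0 of 18677), with 2046 genes at an unadjusted p under 0.05, whereas DESeq2 called 224 higher and 126 lower, *Cdk2* at an adjusted p of 0.0137 and *Ccnb1* at 0.0663 among them. Without E2.5 wild-type replicate 6 the interaction of *Cdk2* was -2.46 (edgeR adjusted p = 0.108). At E2.5 *Cdk2* was called higher in null than in wild-type embryos by DESeq2, at 1.13 (adjusted p = 0.0514), and without E2.5 wild-type replicate 6, at 1.41 (edgeR adjusted p = 0.0564). At E2.75 it was called lower by DESeq2 (adjusted p = 0.0806), with ERCC normalization at -1.57 (adjusted p = 0.0657) and with no filter on low counts at -1.11 (adjusted p = 0.0962).

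The summed RPKM of both E cyclins was 1.70 to 6.13 times that of *Cdk2* in null embryos and 8.67 to 17.1 times in het embryos. At E2.5 the wild-type embryos stood at 7.40 to 21.3 times, above all null embryos of that stage at 1.70 to 3.70. At E2.75 the wild-type embryos stood at 2.95 to 6.29 times and overlapped the null embryos at 2.99 to 6.13. These ratios are given as a description, since *Ccne1* and *Cdk2* enter them.

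*Cdkn1b*, the gene of the inhibitor p27, was near the limit of detection, at 0 to 5.57 CPM, with 1 embryo of each genotype at 0. Its log2 fold changes in null embryos were -0.33 ± 1.08 against het and -0.58 ± 1.02 against wild-type embryos (adjusted p = 0.916 and 0.873). At this depth no difference was detectable.

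**Figure D2:**
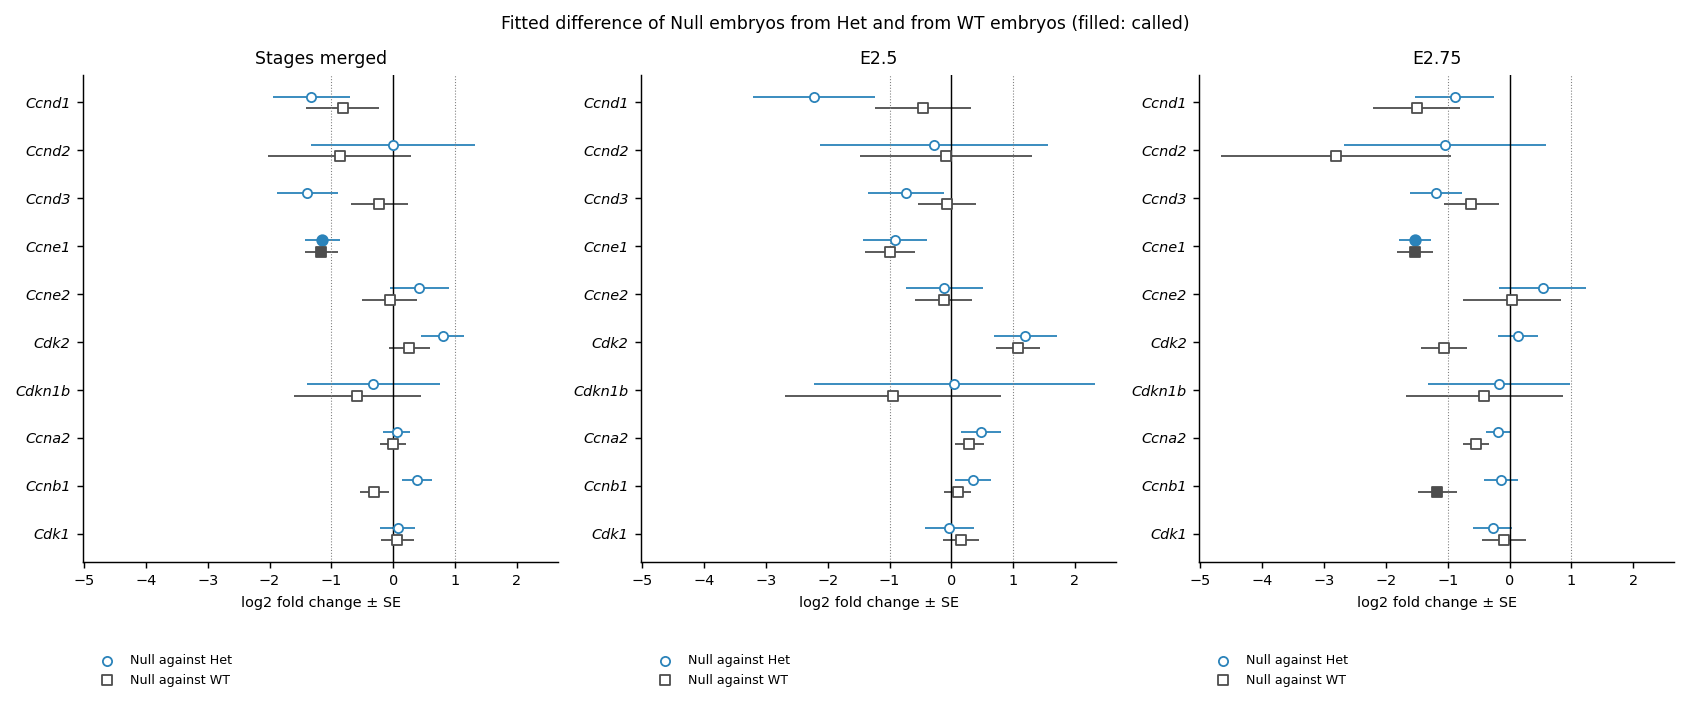
Points are log2 fold changes of null against het (circles) and null against wild-type embryos (squares) for the 10 genes (y axis) with SE, for merged stages and each stage. Filled symbols were called and dotted lines mark a log2 fold change of 1. *Ccne1* is filled for merged stages and at E2.75, and *Ccnb1* at E2.75 against wild-type alone.

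The D cyclins sense growth signals and were low in the embryo, together 3.79 to 31.4 RPKM. *Ccnd3*, the gene of cyclin D3, held 22.6 to 50.3 CPM in null embryos at E2.5 and 43.4, 61.0 and 126 at E2.75. Het embryos held 46.3 and 63.9 CPM at E2.5 and 172, 133, 87.7, 217 and 245 at E2.75. Against het embryos the merged log2 fold change was -1.39 ± 0.49 with an adjusted p of 0.115, short of the threshold. Of the 7 null embryos, 5 lay below the lowest het embryo of their own stage. The het group holds 5 E2.75 embryos of 7 where the null group holds 3 of 7. Within stages the log2 fold change was -0.73 ± 0.61 at E2.5 and -1.19 ± 0.42 at E2.75 (adjusted p = 0.748 and 0.154). The call depended on the setting: with the stages merged *Ccnd3* was called lower by DESeq2, with ERCC normalization, with no filter and in a fit of the genotypes compared alone, and over 8 alternatives it ran from -2.42 to -0.68 with adjusted p-values from 0.0167 to 0.468. At E2.75 it was called by DESeq2, with ERCC normalization and with no filter (adjusted p = 0.0967, 0.0311 and 0.0115). The merged call is also made when any of 3 embryos is left out (E2.5 het replicate 1, E2.5 het replicate 2 or E2.75 null replicate 3), with log2 fold changes of -1.55, -1.52 and -1.78. With the stages merged, the means were 52.5 ± 35.0 CPM in null (SD, n = 7), 138 ± 76.8 in het (n = 7) and 61.4 ± 48.0 in wild-type embryos (n = 9). In these merged means wild-type embryos lay nearer to null than to het embryos, but only 3 of the 9 wild-type embryos were of E2.75. By stage, the medians in null, het and wild-type embryos were 32.3, 55.1 and 31.3 CPM at E2.5. At E2.75 they were 61.0, 172 and 129.5 CPM, with wild-type nearer to het. Null against wild-type ran from -0.73 to 0.0045 on the log2 scale over the 8 alternatives, and *Ccnd3* was called in none.

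*Ccnd1*, the gene of cyclin D1, was scattered within every group. At E2.5 it held 47.3, 7.31, 10.99 and 5.41 CPM in null embryos against 54.2 and 108 in het embryos, and 2.03 to 56.0 in wild-type embryos. Its merged log2 fold change was -1.33 ± 0.62 against het and -0.81 ± 0.59 against wild-type embryos (adjusted p = 0.266 and 0.588). It was called against het embryos without E2.5 null replicate 1, at -1.95 (adjusted p = 0.0906), and with ERCC normalization, at -2.20 (adjusted p = 0.0220). *Ccnd2*, the gene of cyclin D2, reached 17.5 CPM at most and gave -0.00 ± 1.33 and -0.87 ± 1.16. *Ccnd1* shares 1100 exonic bases with *LTO1* and *Ccnd3* shares 361 with *Bysl*, both on the other strand, and reads there could not be assigned by strand.

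*Ccna2* encodes cyclin A2, the partner of CDK2 in S phase and of CDK1 later. It held 464 to 753 CPM in null embryos, 326 to 610.0 in het embryos and 293 to 864 in wild-type embryos, so the genotypes overlapped. Its merged log2 fold changes were 0.06 ± 0.22 against het and -0.00 ± 0.21 against wild-type embryos (adjusted p = 0.926 and 0.998). With ERCC normalization *Ccna2* was called lower against het embryos, at -1.12, where the median over all genes tested also fell, as given below. At E2.75 alone the 3 null embryos held 585, 472 and 495 CPM, below the wild-type embryos at 864, 624 and 714, as for 11.1% of the genes tested. The log2 fold change of -0.55 ± 0.21 was not called (edgeR adjusted p = 0.184). An exon of *Exosc9*, a subunit of the exosome core, overlaps 510 bases of *Ccna2* on the other strand.

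*Ccnb1* encodes cyclin B1, and it held 592, 455, 758 and 612 CPM in the E2.5 null embryos but 299, 272 and 360.5 in those of E2.75. The wild-type embryos of E2.75 held 797, 544 and 686 CPM and lay above all 3 null embryos, as for 11.1% of the genes tested. The het embryos of that stage held 245, 194, 407, 472 and 343. At E2.75 *Ccnb1* fell in null against wild-type embryos by 1.17 on the log2 scale (SE 0.31, edgeR adjusted p = 0.0687). With *Ccne1* it made 2 of 10 members called there, where 4.54% of the genes tested were called. The call was lost without 5 of the 6 embryos compared, all but wild-type replicate 2, with adjusted p-values up to 0.180. Against het embryos of E2.75 the log2 fold change was -0.13 ± 0.28 (adjusted p = 0.872).

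Het against wild-type embryos did not pass the test for *Ccnb1*. At E2.75 the log2 fold change of het against wild-type was -1.04 ± 0.27 with an unadjusted p of 0.00147 and an adjusted p of 0.328. With the stages merged it was -0.69 ± 0.23 (adjusted p = 0.561). All 7 het embryos lay below the wild-type median, but the share of all genes for which this holds was not computed. The merged groups also differ in stage, with 5 of 7 het but 3 of 9 wild-type embryos of E2.75. No gene was called for het against wild-type by edgeR, with 934 genes at an unadjusted p under 0.05 and 37 called higher and 28 lower by DESeq2. *Cdk2* stood at -1.19 ± 0.32 at E2.75 (unadjusted p = 0.00187, adjusted p = 0.328), and *Ccnd3* at 1.17 ± 0.45 with the stages merged (adjusted p = 0.659).

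*Cdk1* encodes the mitotic kinase, and its levels overlapped between the genotypes. Its means were 558 ± 211 CPM in null (SD, n = 7), 531 ± 185 in het (n = 7) and 534 ± 190.4 in wild-type embryos (n = 9). The log2 fold changes were 0.07 ± 0.28 and 0.06 ± 0.27 (adjusted p = 0.931 and 0.960). With ERCC normalization *Cdk1* was called lower against het embryos, at -1.16, where the median over all genes tested also fell, as given below. *Ccnb1* has 5 pseudogenes at least 96.1% identical over the aligned stretches, of which *Ccnb1-ps* took the most reads, 1.60% of the counts of *Ccnb1*.

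Between E2.5 and E2.75, 2 of 10 members were called in wild-type embryos, both higher, where 7.38% of 18677 genes were called and 3.74% were called higher. *Ccnd3* held 10.5, 29.3, 33.2, 25.1, 49.5 and 64.4 CPM at E2.5 and 60.4, 129.5 and 150.4 at E2.75, a log2 fold change of 1.69 ± 0.44 (edgeR adjusted p = 0.0248). *Cdk2* rose by 1.22 ± 0.35 on the log2 scale (adjusted p = 0.0415). Both calls rest on E2.75 wild-type replicate 3, without which they were 1.43 and 1.06 with adjusted p-values of 0.133 and 0.172. Without E2.5 wild-type replicate 6 they were 1.95 and 1.55 and stayed called (edgeR adjusted p = 0.0101 and 0.00499). *Ccna2* stood at 0.72 ± 0.21 (adjusted p = 0.0492), short of the fold threshold, and *Ccne1* at 0.02 ± 0.37. The other 6 members were not called, with *Ccnd1* at 0.54 ± 0.75, *Ccnd2* at 0.60 ± 1.57, *Ccne2* at -0.42 ± 0.63, *Ccnb1* at 0.30 ± 0.25, *Cdk1* at -0.49 ± 0.33 and *Cdkn1b* at 0.34 ± 1.498.

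The same contrast within het and null embryos was added after the data were seen. *Ccnd3* stood at 1.62 ± 0.59 in het and 1.15 ± 0.49 in null embryos (adjusted p = 0.375 and 0.245). *Cdk2* stood at 0.18 ± 0.43 and -0.91 ± 0.40, and *Ccnb1* at -0.46 ± 0.29 and -0.97 ± 0.28, the last with an adjusted p of 0.0775 but within the fold threshold. In this contrast 3% of the genes were called in null and 0.278% in het embryos. The interaction for *Ccnb1*, null against wild-type, was -1.27 ± 0.37 (unadjusted p = 0.00225, adjusted p = 0.3155). The maternal marker list summed to 31.4 to 79.6 CPM at E2.5 and 4.85 to 24.6 at E2.75. Its part in the stage differences was not tested.

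**Figure D3:**
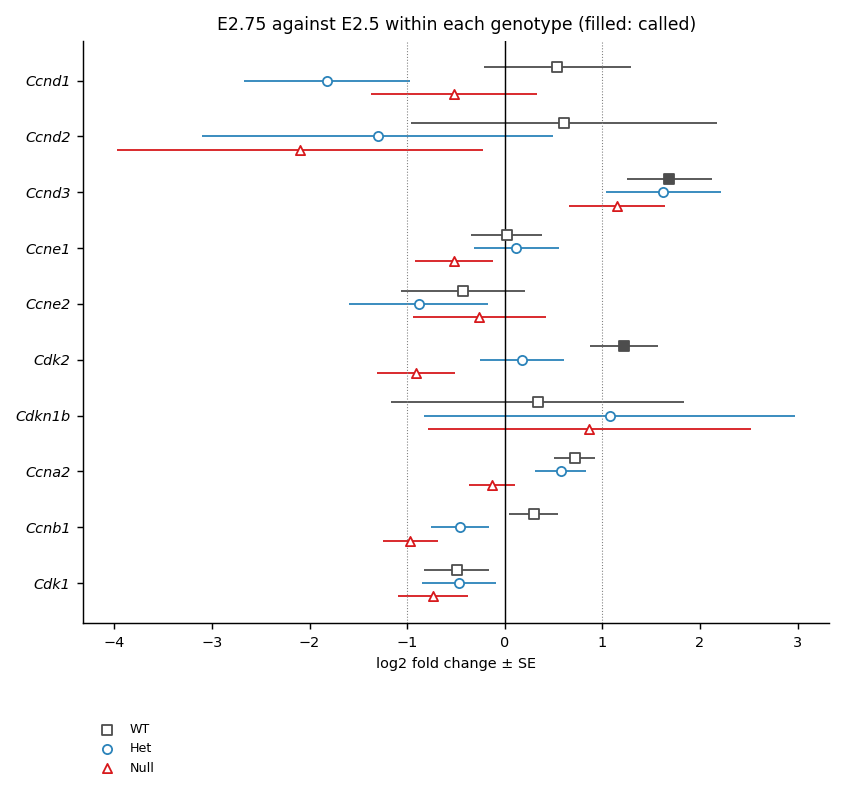
Points are log2 fold changes of E2.75 against E2.5 with SE for the 10 genes, within wild-type (squares), het (circles) and null embryos (triangles). Filled symbols were called. *Ccnd3* lies above 0 in all 3 genotypes and is filled in wild-type, as is *Cdk2*.

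The RPKM of *Ccnb1* was set against that of *Ccna2* in each embryo. The ratio was 1.06 to 1.35 in E2.5 wild-type, 0.968 and 1.38 in E2.5 het and 0.942 to 1.24 in E2.5 null embryos. At E2.75 it was 0.845 to 0.930 in wild-type, 0.317 to 0.886 in het and 0.494 to 0.705 in null embryos. At E2.75 every null embryo was below every wild-type embryo in this ratio. In CPM the same held for *Ccna2*, *Ccnb1*, *Cdk2* and *Ccne1*, as for 11.1% of the genes tested. The ratio is a description, with no test.

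The genes most like each member over the 23 embryos were found by the Pearson correlation of log2 CPM. *Ccne1* was most like *Rtn3* (r = 0.862), *Ubox5* (0.838) and *Snx30* (0.837), and its closest member was *Ccnd3* at 0.411. *Ccnd3* was most like *Acly* (0.903), *Psmd3* (0.879) and *Cdc42ep4* (0.867), *Ccnb1* like *Pttg1ip* (0.865), and *Cdk1* like *Dscc1* (0.858) and the mitotic checkpoint gene *Mad2l1* (0.814). The closest pair of members was *Cdk2* with *Ccna2* at 0.504. The points share stage, genotype and depth, so these values describe the embryos and carry no test.

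The rest of the pathway was followed in 122 other cell cycle genes, of which 119 passed the filter. With the stages merged, null against het embryos gave 1 called higher and 4 lower, with a median log2 fold change of -0.12 against 0.02 over all genes tested. Null against wild-type gave 0 higher and 1 lower, with a median of -0.21 against -0.02. Background shares were 3.67% higher and 2.06% lower, and 3.66% and 1.59%.

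*Cdkn1a*, the gene of the p21 inhibitor, rose to 739 ± 269 CPM in null embryos (SD, n = 7) against 327 ± 184 in het embryos (n = 7), by 1.18 ± 0.38 on the log2 scale (adjusted p = 0.0806). Against wild-type embryos it stood at 0.73 ± 0.35 (adjusted p = 0.316). It was the only 1 of 8 CDK inhibitors and inhibitory kinases called. With stage as a term it was not called.

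Among 14 ubiquitin ligase genes, *Btrc*, whose product recognises targets of the SCF ligase, fell by 1.30 ± 0.25 against het embryos (adjusted p = 0.00344), with 118 ± 30.3 CPM in null and 290.3 ± 89.6 in het embryos. Against wild-type it stood at -0.998 ± 0.24 (adjusted p = 0.0154), just within the fold threshold. *Fbxo5*, the gene of the inhibitor EMI1 of the anaphase-promoting complex, fell by 1.02 ± 0.29 against het (adjusted p = 0.0452).

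The replication genes held the other calls. *Rfc2*, a subunit of the clamp loader, fell against het embryos by 1.38 ± 0.37 and against wild-type by 1.17 ± 0.36 (adjusted p = 0.0345 and 0.0632), and was the 1 called of 18 fork genes. *Mcm2*, a subunit of the replicative helicase, fell by 1.14 ± 0.37 against het (adjusted p = 0.0808), the 1 called of 23 licensing and firing genes. In that list 9 of 23 log2 fold changes were positive against het and 4 of 23 against wild-type, where 51.1% and 48.6% of all genes tested were positive.

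No gene was called in the other lists. For other cyclins, *Ccnc* stood at 0.57 ± 0.25 and *Ccny* at -1.15 ± 0.53 against het embryos (adjusted p = 0.217 and 0.259). For other CDKs and their activators, *Cks1b* stood at -0.69 ± 0.23 (adjusted p = 0.0966) and *Cdc25c*, a phosphatase that activates CDK1, at -1.21 ± 0.42 (adjusted p = 0.114) against wild-type. For mitosis, *Birc5* stood at 0.55 ± 0.23 and *Bub1b* at -0.94 ± 0.41 against het (adjusted p = 0.203 and 0.222). The RB and E2F list (13 genes) and the checkpoint list (6 genes) had 0 genes at an unadjusted p under 0.05 in either merged comparison. Their smallest p-values against het were those of *Rbl1* at -0.66 ± 0.61 and *Chek1* at -0.44 ± 0.28.

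**Figure D4:**
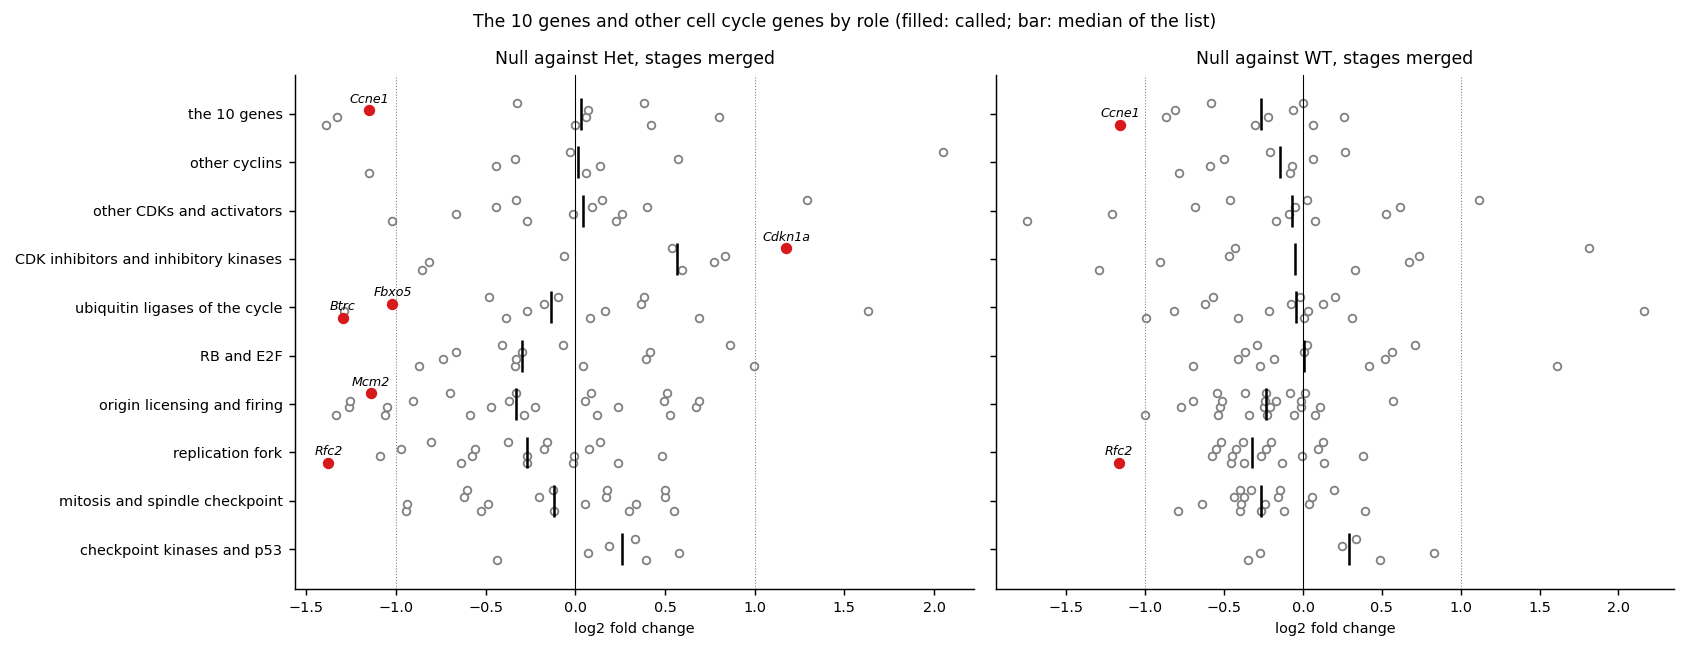
Each point is the log2 fold change of 1 gene (x axis) in null against het (left) or wild-type embryos (right), stages merged, by list (y axis). Filled points were called and bars are list medians. The filled points are *Ccne1*, *Cdkn1a*, *Btrc*, *Fbxo5*, *Mcm2* and *Rfc2* on the left, and *Ccne1* and *Rfc2* on the right.

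At E2.75 alone, null embryos had 10 other cell cycle genes called lower and 1 higher against wild-type, and 6 lower and 0 higher against het, of 119 tested. Over all genes tested 2.35% were lower and 2.19% higher against wild-type, and 2.31% and 2.51% against het. Those lower against wild-type were *Ccnh*, *Cdk6*, *Cdc25c*, *Cdc20*, *E2f1*, *Mcm10*, *Cdc7*, *Rfc2*, *Plk1* and *Espl1*, and the 1 higher was *Atm*. Those lower against het were *Cdc25c*, *Btrc*, *E2f1*, *Mcm10*, *Cdc7* and *Rfc2*. *Cdc25c* fell by 2.43 ± 0.36 and *E2f1*, an activator of S phase genes, by 3.27 ± 0.81 against wild-type. The list median was -0.37 against -0.01 over all genes tested. At this stage the 2 shallowest libraries are 2 of the 3 null embryos.

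POU6F1-mCherry peaks were examined at the same genes in the mESCs. Peaks called against IgG and shared by both replicates lay within 1 kb of an annotated start site of 7 of the 10 genes, where 65.3% of the genes tested had such a peak. Those without were *Ccnd1*, *Ccnd2* and *Cdk1*. Against cells with mCherry alone, *Ccne1*, *Cdk2* and *Ccnb1* had such a peak, 3 of 10 where 23.9% of the genes tested did, and these 3 had a peak in all 4 deposited lists. The members thus stood near the background share.

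*Ccne1* had peaks of 31.9-fold and 13.7-fold enrichment over IgG in replicates 1 and 2, and 20.98-fold and 7.62-fold over the mCherry cells. The peak of replicate 2 over mCherry cells, at chr7:38107574-38107853, covers most of the promoter printed above. *Cdk2* had 25.8-fold and 12.2-fold over IgG, *Ccnb1* 21.2-fold and 6.92-fold, and *Ccnd3*, at its internal start, 14.1-fold and 6.998-fold. *Ccna2* had the highest value over IgG in replicate 1 at 33.03-fold but 6.92-fold in replicate 2. The replicates differed in the number of peaks, 82694 and 24524 over IgG, and the depth of these lists is unknown.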

How the data were processed

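The genes and lists were chosen with earlier results of these data known. The authors' embryo files hold counts, deposited as whole numbers with no normalization. Reads had been trimmed by cutadapt (3.4) and mapped by STAR (2.7.8a) on GRCm38, and HTSeq (0.11.4) had assigned to a gene only reads lying wholly in its exons, without regard to strand. For ChIP-seq the authors used Bowtie2 2.4.4 and called peaks per replicate with MACS2 2.2.7.1. The deposited peak lists give fold enrichment over the control, a ratio, and the -log10 of the q value.

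Counts were tested in R 4.3.3 with edgeR 4.0.16 (quasi-likelihood test, TMM, filterByExpr), in 1 fit over all genes with the stages merged, in each stage, and over 6 groups of stage and genotype. ERCC spike-ins (92) and 5 summary lines stayed out of library sizes. DESeq2 1.42.0 was an alternative. The code was tested on simulated data. CPM used TMM, log2 CPM a prior count of 2, and RPKM the exon length of GENCODE vM21. *Skp1* was matched by a RefSeq synonym. Shared peaks overlap in both replicates (bedtools 2.31.1). The naming rule took the 10 genes, and from other lists those called with the stages merged or up to 2 of smallest p. A member given no value in a comparison was not called there. Other genes named at E2.75 were chosen after their values were seen. Copies were sought with BLAST 2.17.0 (over 200 aligned bases, 95% identity). Litters are not given in the labels, so embryos may share one. The 38 pairs of embryos of 1 group differed by more than sampling noise. Numbers shared by embryos did not pair them: over 17 same-number pairs the correlation of deviations ran from -0.11 to 0.09.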

Additional observations from a re-analysis of the deposited data

Results flagged for a closer look

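*Cdk2* in the E2.75 het embryo of replicate 3 lay far from the others of its group. It held 35.0 CPM (422 counts), where the other 4 het embryos of that stage held 72.9 to 82.3 CPM. Its gap to the nearest of them was 0.858 of the whole range, above the limit of 0.71 for 5 samples. Of 30 combinations of gene and group examined this was the 1 marked, and chance marks about 5% of them.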

How the results depend on the processing

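The cause of each change below was not tested. The number of all genes called moved with the setting too, as given below for ERCC normalization and DESeq2. The member counts are not set against a share for each setting, so they are not read as results about the members. Of 10 members, null against het embryos with the stages merged called 1, and 2 by DESeq2, 2 with no filter on low counts, 2 in a fit of the genotypes compared alone, 5 with ERCC normalization and 0 with the replicate block. Leaving out 1 embryo gave 1 to 2. At E2.5, ERCC normalization called 2 against het, DESeq2 called 1 against wild-type, and leaving out 1 embryo gave 0 to 1 against wild-type. At E2.75, null against het gave 2 by DESeq2, 2 with no filter, 3 with ERCC and 0 with the block, with 1 to 2 without 1 embryo, and null against wild-type, with 2 called, gave 1 with the block, 3 by DESeq2, 3 with ERCC and 3 with no filter, where *Cdk2* was added, and 1 to 2 without 1 embryo. The stage contrast in wild-type embryos gave 4 with ERCC and 0 to 2 without 1 embryo. The interaction for null against wild-type gave 2 by DESeq2 and 1 with no filter. Of the other cell cycle genes, null against het called 0 higher with stage as a term and 7 lower by DESeq2, and null against wild-type called 3 lower with stage as a term and 2 by DESeq2. The mCherry control left 3 members with a peak.

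With ERCC normalization the median over all genes tested shifted on the log2 scale to -1.08 for null against het and -0.37 for null against wild-type. For null against het with the stages merged, 289 genes were then called higher and 4487 lower of 13415 tested, against 493 and 276 with TMM. Null against het was then -0.47 for *Ccne2*, -0.49 for *Cdk2*, -1.12 for *Ccna2*, -0.84 for *Ccnb1* and -1.16 for *Cdk1*, while *Ccne1* stood at -2.35. Of these, *Ccna2*, *Cdk1* and *Ccne1* were called lower. Null against wild-type was -0.50 for *Cdk2* and -0.39 for *Cdk1*, *Ccnb1* was -0.30 at E2.5, *Cdk2* against het was -0.67 at E2.75, and *Ccne1* in het against wild-type was 0.73. Signs also changed under other settings. Null against het gave 0.41 for *Ccnd2* without the 2 shallowest null libraries, -0.079 and -0.068 for *Ccna2* and *Cdk1* with no filter, and -0.11 for *Cdk1* with stage as a term. Null against wild-type gave 0.018 for *Ccna2* by DESeq2 and by RLE, 0.015 with stage as a term, and -0.021 for *Cdk1* with no filter. *Ccne1* in het against wild-type gave 0.0064 by DESeq2, 0.0059 by RLE, 0.037 with no filter and 0.034 with stage as a term.

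The replicate block gave -1.05 for *Ccne1* against het (adjusted p = 0.163) and -1.11 against wild-type (adjusted p = 0.0834), -0.15 for *Ccne2* against het, 0.0045 for *Ccnd3* against wild-type and 0.16 for *Ccnb1* against het at E2.75. The numbers did not pair the embryos (0 of 17 pairs above a correlation of 0.1).

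Without 1 embryo, signs changed within these ranges of log2 fold change. Null against het ran from -1.51 to 0.46 for *Ccnd2*, -0.046 to 0.10 for *Ccna2* and -0.065 to 0.20 for *Cdk1*, and at E2.75 from -0.27 to 0.026 for *Ccnb1* and -0.16 to 0.37 for *Cdk2*. Null against wild-type ran from -0.61 to 0.068 for *Ccnd3*, -0.36 to 0.083 for *Ccne2*, -0.10 to 0.11 for *Ccna2* and -0.073 to 0.18 for *Cdk1*, and at E2.5 from -0.023 to 0.23 for *Ccnb1*. *Ccne1* ran from -0.11 to 0.11 in het against wild-type and from -0.13 to 0.23 between the stages in wild-type embryos. DESeq2 called 1247 genes higher and 548 lower for null against het, and 1187 and 471 for null against wild-type.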
